A study of Mus musculus with 4 samples.

Results

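The genes described here encode 10 secreted proteins of antimicrobial and mucosal defence: Reg3a, Reg3b, Reg3g, Reg4, Retnlb, Ang4, Lyz1, Saa1, Saa3 and Lcn2. C57BL/6 mice gave colonic mucosa at 90 days after birth (P90) and at 30 days after birth (P30), and the RNA of the ages was set side by side on 4 two-colour arrays, labelled a, b, e and k. Each array held 1 P90 RNA and 1 P30 RNA; the P90 dye was Cy5 on array e and Cy3 on the other 3. The mucosa had been scraped off with a glass slide, so it can hold other cells beside epithelium. Nothing in the labels tells whether an animal served once, so a p-value here covers only the variation among the 4 pairs, which may partly be technical. The 10 genes were found through the accessions of their probes and had 11 probes, out of 32665 genes and transcripts and 41174 probes on the array. Of these, 9 genes with 10 probes were bright enough to be tested, and Lcn2 was not.

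The epithelium of the large intestine keeps bacteria at a distance with mucus and with proteins secreted into it. Reg3 proteins are small C-type lectins that bind and kill bacteria, and their genes are known to respond to the cytokine IL-22 and to microbial signals through MyD88. RELM-beta (the product of Retnlb) and angiogenin 4 come from goblet and Paneth cells, lysozyme digests bacterial cell walls, serum amyloid A proteins belong to the acute phase response, and lipocalin 2 captures bacterial siderophores.

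Between the ages, the 3 Reg3 genes lay below 0 on the log2 P90/P30 scale on all 4 arrays as labelled, and none of the other tested members kept 1 direction. The mean log2 P90/P30 was -1.76 ± 1.17 for Reg3g, -1.60 ± 2.54 for Reg3b and -0.73 ± 0.57 for Reg3a (SD, n = 4 each). Saa3, Saa1 and Ang4 had means above 0, and Retnlb, Lyz1 and Reg4 had means below 0. Each of these genes had values on both sides of 0. No member probe passed limma's test at an adjusted p of 0.05, in either direction, and neither did any of the 27055 probes tested (0% higher and 0% lower). At an unadjusted p under 0.05 by the same tool, 2 of the 10 member probes were counted, those of Reg3a and Reg3g, against 8.05% of all probes (2.89% higher and 5.16% lower). Both had means below 0, and 2 member probes, of Reg3b and Reg3g, had a mean of -1 or below, against 0.839% of all probes. A mean of 1 or above was found for 1 member probe, that of Saa3, against 0.314%. The 3 member probes below 0 on all 4 arrays compare with 7.73% of all probes (7.96% of genes at 1 probe each), and 0 member probes were above 0 on all 4, against 6.59%. These counts depend on the direction of array b, whose ratios ran against those of the other arrays. With the sign of array b turned, no Reg3 probe was below 0 on all 4 arrays, since the values there became 0.18 for Reg3a, 0.011 for Reg3b and 0.14 for Reg3g. Then 1 member probe was below 0 on all 4, that of Lyz1, against 20% of all probes, and 2 were above 0 on all 4, both of Saa1, against 14%.

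The promoters of the Reg3 and Saa genes are shown because these are the families whose members lay on 1 side of 0 in the mean. Each sequence is the 250 bases before the RefSeq start site, written in the direction of the gene, from assembly GRCm38.p6. Reg3a lies at chr6:78380459-78380708 on the plus strand, Reg3b at chr6:78370635-78370884 on the plus strand, Reg3g at chr6:78468875-78469124 on the minus strand, Saa1 at chr7:46742981-46743230 on the minus strand and Saa3 at chr7:46715677-46715926 on the minus strand. Capitals mark matches to 4 motifs searched on both strands: TTCNNNGAA (STAT factors), TTGCNNAA (C/EBP factors), the core promoter box TATAAA and the NF-kB motif.
Reg3a: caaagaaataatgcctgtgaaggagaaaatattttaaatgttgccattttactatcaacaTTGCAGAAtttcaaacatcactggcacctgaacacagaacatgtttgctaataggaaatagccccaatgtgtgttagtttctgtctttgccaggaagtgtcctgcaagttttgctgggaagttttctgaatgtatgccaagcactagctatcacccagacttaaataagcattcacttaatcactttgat
Reg3b: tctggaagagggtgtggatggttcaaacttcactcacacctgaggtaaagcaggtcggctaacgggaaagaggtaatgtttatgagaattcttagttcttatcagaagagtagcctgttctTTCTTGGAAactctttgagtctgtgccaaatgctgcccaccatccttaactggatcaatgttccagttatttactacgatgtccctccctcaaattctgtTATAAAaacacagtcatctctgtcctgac
Reg3g: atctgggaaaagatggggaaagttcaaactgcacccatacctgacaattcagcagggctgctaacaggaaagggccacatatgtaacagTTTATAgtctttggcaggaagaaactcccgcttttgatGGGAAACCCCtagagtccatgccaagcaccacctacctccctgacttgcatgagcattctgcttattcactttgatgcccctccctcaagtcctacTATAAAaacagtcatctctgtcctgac
Saa1: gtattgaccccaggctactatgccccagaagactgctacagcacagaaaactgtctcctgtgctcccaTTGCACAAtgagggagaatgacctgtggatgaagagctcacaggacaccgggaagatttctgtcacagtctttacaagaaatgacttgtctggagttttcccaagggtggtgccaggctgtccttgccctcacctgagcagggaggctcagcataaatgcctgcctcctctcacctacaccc
Saa3: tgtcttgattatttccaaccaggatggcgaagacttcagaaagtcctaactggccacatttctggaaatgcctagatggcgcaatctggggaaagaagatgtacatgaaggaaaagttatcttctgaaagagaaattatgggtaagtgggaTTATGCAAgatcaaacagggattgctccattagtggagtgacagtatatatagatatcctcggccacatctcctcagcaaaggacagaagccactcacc
In these windows Reg3b held the STAT motif 129 bases before the start site and a TATA box at 29 bases. Reg3g held the NF-kB motif at 123 bases, where it matched on both strands, and a TATA box at 27 bases. The letters TATAAA also matched on the opposite strand at 161 bases. The C/EBP motif was found in Reg3a at 190 bases, in Saa1 at 182 bases and, on the opposite strand, in Saa3 at 99 bases. No matches overlapped within a window other than these 2 readings of the NF-kB site. Of the 9 members with a promoter in the table, 5 held the C/EBP motif, against 9.56% of 32851 promoters, and 2 held the STAT motif, against 7.02%. The letters TATAAA were found on either strand in 2 of the 9, against 12.4%, and the NF-kB motif in 1, against 7.25%. Retnlb had no entry in the table. Reg3b and Reg3g were identical at 68.9% of aligned columns. Reg3a matched Reg3b at 47.9% and Reg3g at 50.5%, close to the 48.8% to 52.6% found between Reg3 and Saa promoters. A match is a string of letters and shows no binding.

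Reg3g, the lectin known to act on Gram-positive bacteria (probe A_51_P354126, chromosome 6), was the member with the smallest p. Its normalised log2 signal, in arbitrary units comparable between arrays for 1 probe, was 8.56 on array a, 11.86 on array b, 11.95 on array e and 12.49 on array k at P90, and 11.38, 11.99, 14.31 and 14.22 on the same arrays at P30. The P90 signal was below its P30 partner on every array, barely so on b, although the ranges of the 2 ages overlapped. Its log2 P90/P30 was -2.82 on array a, -0.14 on array b, -2.36 on array e and -1.73 on array k. The mean corresponds to a 3.39-fold lower signal at P90, with a 95% interval of the log2 ratio from -2.84 to -0.68, a p of 0.007339 and an adjusted p of 0.5841 in limma. By p, this probe ranked 314 of 27055. Without array b, the mean was -2.30 and limma's adjusted p was 0.08106, the lowest that Reg3g reached under 21 alternatives, with a highest of 0.9999.

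Reg3b, the family's lectin known to act mainly on Gram-negative bacteria (A_51_P169671, chromosome 6), had a mean that rested on array a. There the scanned spot had a median brightness of 462 in the P90 channel and 53284 in the P30 channel. Its normalised log2 signal was 9.81 on array a, 14.77 on array b, 15.23 on array e and 15.27 on array k at P90, and 15.20, 14.78, 15.88 and 15.63 at P30. The P90 signal on array a stood far below the other 7 values, which lay close together. As a log2 P90/P30 this gave -5.39 on array a, -0.011 on array b, -0.65 on array e and -0.36 on array k. The P30 channel was saturated on arrays e and k, so the ratios there can be lower than measured. The adjusted p was 0.6695 in limma, with an interval from -3.87 to 0.67, and the mean was -0.34 without array a. The SD of 2.54 was larger than that of 99.92% of the probes tested.

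Reg3a (A_51_P267969, chromosome 6) is a lectin of the same family. Its normalised log2 signal was 6.63 on array a, 7.71 on array b, 7.73 on array e and 8.31 on array k at P90, and 7.68, 7.89, 8.05 and 9.67 at P30. The P90 spot on array a was not well above background, and the age ranges overlapped. Expressed as log2 P90/P30, the values were -1.05 on array a, -0.18 on array b, -0.32 on array e and -1.36 on array k, with an interval of the mean from -1.30 to -0.15, a p of 0.02207 and an adjusted p of 0.6014 in limma. Since the P90 spot on array a was near background, its ratio there is uncertain, and it enters this mean and p. Without array a the mean was -0.62, with an adjusted p of 0.9999 in limma (0.117 to 0.9999 over 20 alternatives).

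Reg4 (A_52_P257758, chromosome 3), a lectin of the wider Reg family that marks deep crypt secretory cells of the mouse colon, had a log2 signal of 12.23 on array a, 11.08 on array b, 12.18 on array e and 11.86 on array k at P90, and 12.21, 12.76, 11.68 and 14.31 at P30. The P30 signal on array k was higher than all other values. In log2 P90/P30 the probe read 0.023 on array a, -1.68 on array b, 0.50 on array e and -2.45 on array k, a mean of -0.90 ± 1.39 (SD, n = 4) with an adjusted p of 0.668 in limma. Without array k the mean was -0.39, and without array e it was -1.37. The deep crypt secretory markers counted (4 of 5 measured) had a median of -0.35, with -0.14 on array a, 0.30 on array b, -0.44 on array e and -0.37 on array k, and summed signals of 33680 to 57170 at P90, against 48340 to 82660 at P30. On arrays a, b and e these medians and the Reg4 ratio had opposite signs, and on array k both were below 0. Small intestine markers, all 8 measured, had medians of -0.16 on array a, 0.21 on array b, -0.025 on array e and -0.67 on array k. Their summed signal was 43530 to 87350 at P90, against 65780 to 81520 at P30. Most of it came from Fabp2 and Mep1a, at 40840 and 27870 of 71760 on array a at P90. Fabp2 was saturated at P30 on 2 arrays, and Lct and Apoa4 were well above background at P90 on only 1 array. On array k, Fabp2 (a fatty acid binding protein) read -1.46, and the ileal Fabp6 and the Paneth cell defensin Defa20, chosen after their values were seen, read -2.24 and -4.51. The other Paneth cell markers tested, Mmp7, Itln1 and Defa3, read 1.18, 0.74 and 0.048 there, and the median of the Paneth list was 0.39. Slc5a1, likewise chosen, was the small intestine marker above 0 there, at 0.29. Array k is also where Reg3a and Reg4 had their lowest ratios. Without array k the mean was -0.52 for Reg3a and -1.77 for Reg3g, and the part of either cell type in the Reg values was not tested. In bulk mucosa, fewer cells of a type and less RNA per cell cannot be told apart.

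**Figure D1:**
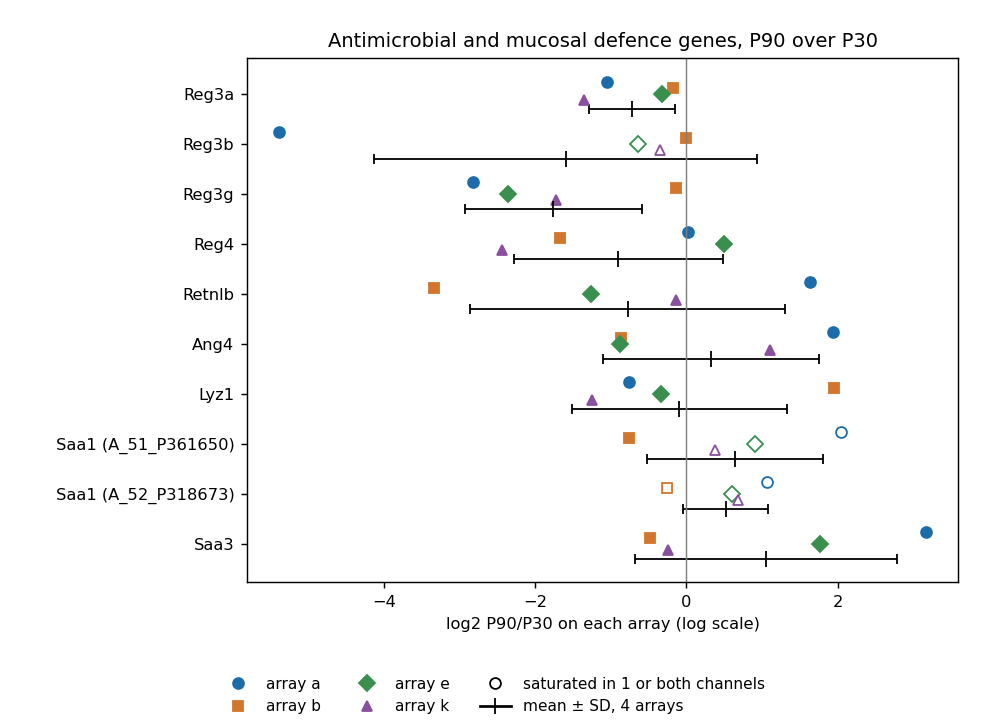
Log2 P90/P30 of the 10 member probes tested (horizontal axis, log scale) on arrays a, b, e and k, with open symbols where a channel was saturated and bars for the mean ± SD of 4 arrays. The Reg3 probes lie at or below 0 on every array, down to -5.39 for Reg3b on array a, and the other members spread over both sides of 0.

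Retnlb (A_51_P428360, chromosome 16), the goblet cell protein RELM-beta, had a log2 signal of 15.21 on array a, 10.55 on array b, 11.39 on array e and 13.50 on array k at P90, and 13.57, 13.89, 12.66 and 13.63 at P30. The P90 values spanned the P30 values on both sides, above them all on array a and below them all on b and e. The range was 4.66 log2 units at P90 and 1.23 at P30. Per array, log2 P90/P30 came to 1.64 on array a, -3.34 on array b, -1.27 on array e and -0.14 on array k, a mean of -0.78 ± 2.09 (SD, n = 4) with an adjusted p of 0.8209 in limma. The mean was 0.078 without array b and -1.58 without array a. Goblet cell markers (9 of 10 measured, 5 of them saturated) had medians over the 4 counted of -0.60 on array a, 0.084 on array b, 0.31 on array e and 0.93 on array k, and a summed signal of 32110 to 38480 at P90, against 36780 to 60730 at P30. Their median was thus below 0 on array a, where Retnlb was above 0, and above 0 on arrays b, e and k, where Retnlb was below 0. The single markers were split. Spink4 had the signs of Retnlb on every array, with 0.011, -1.02, -1.06 and -0.66 on a, b, e and k. Atoh1 and Creb3l1 had the opposite sign on every array, and Spdef shared the sign of Retnlb only on array b. The markers' part in the Retnlb values was not tested. Of the 4 counted, Creb3l1 (0.58 ± 0.77) and Atoh1 (0.18 ± 0.80) had means above 0, and Spdef (-0.03 ± 1.15) and Spink4 (-0.69 ± 0.50) below (SD, n = 4 each).

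Ang4 (A_52_P98778, chromosome 14), a ribonuclease with microbicidal activity, had a log2 signal of 15.39 on array a, 11.08 on array b, 12.33 on array e and 13.45 on array k at P90, and 13.45, 11.95, 13.21 and 12.35 at P30. As for Retnlb, the P90 value was above every P30 value on array a and below every P30 value on array b. Its log2 P90/P30 was 1.94 on array a, -0.87 on array b, -0.88 on array e and 1.104 on array k, a mean of 0.32 ± 1.43 (SD, n = 4) with an adjusted p of 0.9099 in limma. Without array a, the mean was -0.22, and without array k it was 0.063. The genes nearest in their ratios over the 4 arrays, among 13907, were its paralogs Ang6, with a root mean square difference of 0.224 log2 units, and Ang2, with 0.399. Ang6 had 2.05 on array a, -0.65 on array b, -0.73 on array e and 0.76 on array k. Probes of near-identical angiogenin genes may share targets, so separate values for them are uncertain.

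**Figure D2:**
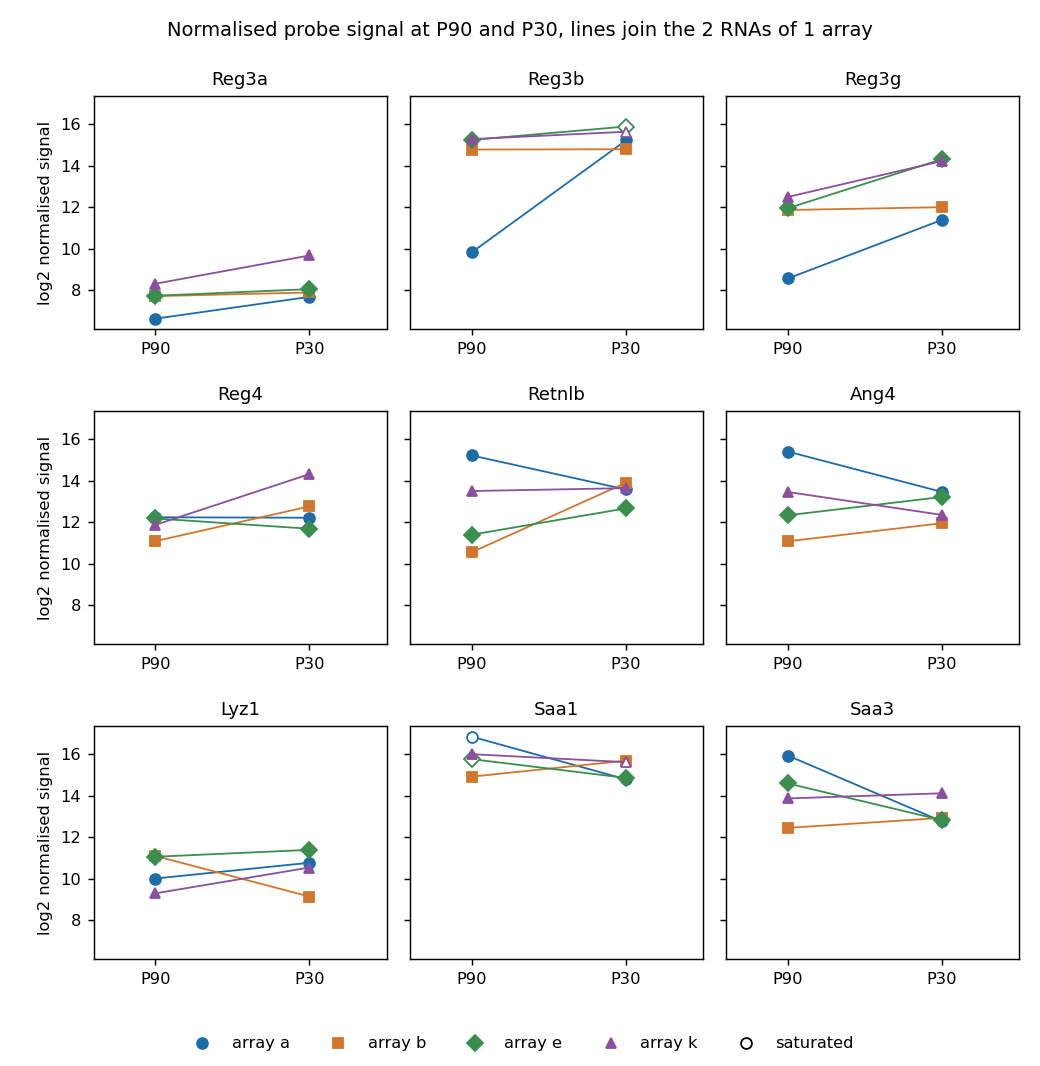
Normalised log2 signal of 9 members (Saa1 by A_51_P361650) at P90 and at P30 (vertical axis, arbitrary units), with a line joining the 2 RNAs of each array and open symbols for saturated spots. The P90 points on array a are low for Reg3b (9.81) and Reg3g (8.56) and high for Retnlb (15.21), Ang4 (15.39) and Saa3 (15.93).

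Lyz1 (A_52_P582059, chromosome 10), the lysozyme of Paneth cells, had a log2 signal of 10.01 on array a, 11.10 on array b, 11.06 on array e and 9.29 on array k at P90, and 10.77, 9.14, 11.39 and 10.54 at P30. All P90 values lay within the P30 range. As a log2 P90/P30 this gave -0.76 on array a, 1.96 on array b, -0.33 on array e and -1.24 on array k, a mean of -0.094 ± 1.42 (SD, n = 4) with an adjusted p of 0.982 in limma. The mean was 0.128 without array a, -0.778 without b, -0.015 without e and 0.289 without k. Its macrophage paralog Lyz2 had -0.05 on array a, 0.80 on array b, -0.85 on array e and -0.18 on array k, and the 2 genes are similar enough that a probe may read both. All 8 macrophage markers measured, Lyz2 among them, had means below 0, and their median was -1.096 on array a, 0.92 on array b, -0.50 on array e and -1.05 on array k. Their summed signal was 1261 to 4048 at P90, against 1440 to 5959 at P30. Lyz1 and these markers were thus above 0 on array b and had a median or value below 0 on the other 3, and the markers' part in the Lyz1 values was not tested. Paneth cell markers had 7 of 12 genes on the array and 4 tested, with medians of 0.21 on array a, -0.34 on array b, -0.026 on array e and 0.39 on array k. Their summed signal was 2916 to 4872 at P90, against 2336 to 8077 at P30. The defensins Defa21, Defa22 and Defa23 were too dim to test.

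Saa3 (A_51_P337308, chromosome 7), an amyloid A protein made locally in mice by epithelium, macrophages and fat, had a log2 signal of 15.93 on array a, 12.45 on array b, 14.58 on array e and 13.86 on array k at P90, and 12.75, 12.93, 12.82 and 14.11 at P30. The P90 values on arrays a and e were above every P30 value, and that on b was below them all. Expressed as log2 P90/P30, the values were 3.17 on array a, -0.48 on array b, 1.77 on array e and -0.25 on array k, a mean of 1.05 ± 1.74 (SD, n = 4), with an interval from -0.51 to 2.62 and an adjusted p of 0.6854 in limma. Without array a the mean was 0.35.

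Saa1, a serum amyloid A of the acute phase response (chromosome 7), was partly beyond the scanner's range on both of its probes. For A_51_P361650, the log2 signal was 16.84 on array a, 14.91 on array b, 15.75 on array e and 15.99 on array k at P90, and 14.79, 15.68, 14.85 and 15.61 at P30. P90 was saturated on arrays a and e and P30 on array k, so the ratios on a and e can be higher, and that on k lower, than measured. In log2 P90/P30 the probe read 2.05 on array a, -0.77 on array b, 0.90 on array e and 0.38 on array k, a mean of 0.64 ± 1.17 (SD, n = 4) with an adjusted p of 0.718 in limma. It was 0.17 without array a and 1.11 without array b. The other probe, A_52_P318673, had 1.06, -0.26, 0.60 and 0.69 on arrays a, b, e and k, a mean of 0.52 ± 0.56 (SD, n = 4) with an adjusted p of 0.6217 in limma. It was saturated at P90 on a and e and at P30 on a, b and k. The 29 probes of the array that were saturated in both channels on all 4 arrays read 1.06 on array a, so the A_52_P318673 ratio there is the scanner's ceiling. On array k they read 0.76, close to the 0.69 of A_52_P318673. Its P90 spot there had a median brightness of 62113.5 beside a saturated P30 spot, so this ratio can be lower than measured. The same 29 probes read 0.33 on array b and -0.15 on array e, where A_52_P318673 read -0.26 and 0.60. Clca1 and Zg16, saturated in both channels on all 4 arrays, each had a mean of 0.50. The mean of 0.52 for A_52_P318673 was close to this and cannot be read as a change. Saa1 and the near-identical Saa2, also saturated, cannot be separated with certainty. The liver makes most circulating amyloid A, and of 8 liver markers 6 were tested, with medians of 1.42 on array a, -0.091 on array b, 0.29 on array e and 0.22 on array k. Their summed signal was 614.2 to 1680 at P90, against 556.7 to 816 at P30. These markers were dim, with signals of 75.62 to 606.7 for Alb and 72.14 to 105.2 for Apoa2. Saa1 (A_51_P361650) had 28280 to 117100, and ratios of markers this dim are uncertain. The signs of the liver medians were those of Saa1 on each array, and the part of these markers in its values was not tested. These signs were not particular to liver markers. On arrays a, b, e and k the pancreas marker medians were 0.44, -0.68, 0.62 and 0.029. Those of the other antimicrobial genes counted were 0.39, -0.36, 0.28 and 0.26.

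Lcn2 (A_51_P510156, chromosome 2) was not well above background in either channel on any array. Its scanned spots had median brightness between 58 and 73 at P90 and between 66 and 75 at P30, and no ratio is given.

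The members varied more between arrays than most probes did. The median SD of the log2 ratio was 1.404 over the 10 member probes, against 0.344 over all probes tested and 0.4035 over the 6763 brightest of them. All 10 member probes had an SD above that of the median probe, from a percentile of 77.89 to one of 99.92. All 10 reached 1 in absolute log2 P90/P30 on at least 1 array, against 18.4% of all probes, and 6 reached 2, against 2.59%. The P90 range was wider than the P30 range in 7 of the 10 (70%), against 56.2% of all probes and 61.4% of those brightest probes, with median ranges of 2.70 at P90 and 1.43 at P30. The median of the 9 member genes was 0.023 on array a, -0.26 on array b, -0.33 on array e and -0.36 on array k, and -0.73 for the means of the single genes, against a median mean of -0.0195 over all genes.

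The arrays themselves differed. On array a, 55.58% of gene spots were well above background in the P90 channel and 71% in the P30 channel, and on array k 57.26% and 69.61%. On array b the shares were 69.31% at P90 and 66.62% at P30, and on array e 65.36% and 64.58%. The P90 channel was thus the dimmer one on arrays a and k, where the Reg3a ratio was lowest, and array a also held the low P90 signals of Reg3b and Reg3g. The part of this difference in those values was not tested. Over all probes, the log2 P90/P30 of array b correlated with that of array a at r = -0.30, with e at -0.27 and with k at -0.17, whereas a, e and k correlated with each other at 0.30 to 0.58. The labels state the dyes, so the direction of array b was kept; with its sign turned, no member passed limma's test. The means were then -0.64 for Reg3a, -1.59 for Reg3b, -1.69 for Reg3g, -0.063 for Reg4, 0.895 for Retnlb, 0.76 for Ang4, -1.07 for Lyz1, 1.03 and 0.65 for the Saa1 probes A_51_P361650 and A_52_P318673, and 1.29 for Saa3. The lowest adjusted p among them was 0.09446 in limma, for A_52_P318673, and that of Lyz1 was 0.1043. A_52_P318673 was saturated in at least 1 channel on every array. All 12 markers of colonic epithelium were measured, 5 of them saturated, Vil1 and Krt8 among them. The 7 counted had medians of -0.25 on array a, 0.20 on array b, -0.32 on array e and -0.44 on array k.

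Among related genes of the same families, 12 of 14 listed paralogs were on the array and 10 were tested. Reg1, a pancreatic Reg protein, had a mean of -0.38 ± 0.32, and Reg2 had -0.06 ± 0.31 (SD, n = 4 each). Reg3d and Saa4 were too dim to test. Pancreas markers, of which 5 of 8 were tested, had medians of 0.44 on array a, -0.68 on array b, 0.62 on array e and 0.029 on array k. Retn, which encodes the fat hormone resistin and is also on the adipocyte list, had 0.24 on array a, 0.89 on array b, 3.65 on array e and 0.20 on array k, and Retnla had 0.82, 0.27, 1.81 and -0.35. Retnlg, a neutrophil resistin-like gene, had a mean of -0.15 ± 0.23, Ang one of 0.51 ± 1.06 and Ang2 one of 0.53 ± 1.25 (SD, n = 4 each). Retnlg was well above background at P90 on only 1 array, and Retn had signals of only 63.64 to 77.21 on arrays a and k. Ratios this near background are uncertain. None of the 9 paralogs counted, saturated Saa2 left out, passed limma's test or an unadjusted p under 0.05, against 0% and 8.11% of all genes.

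**Figure D3:**
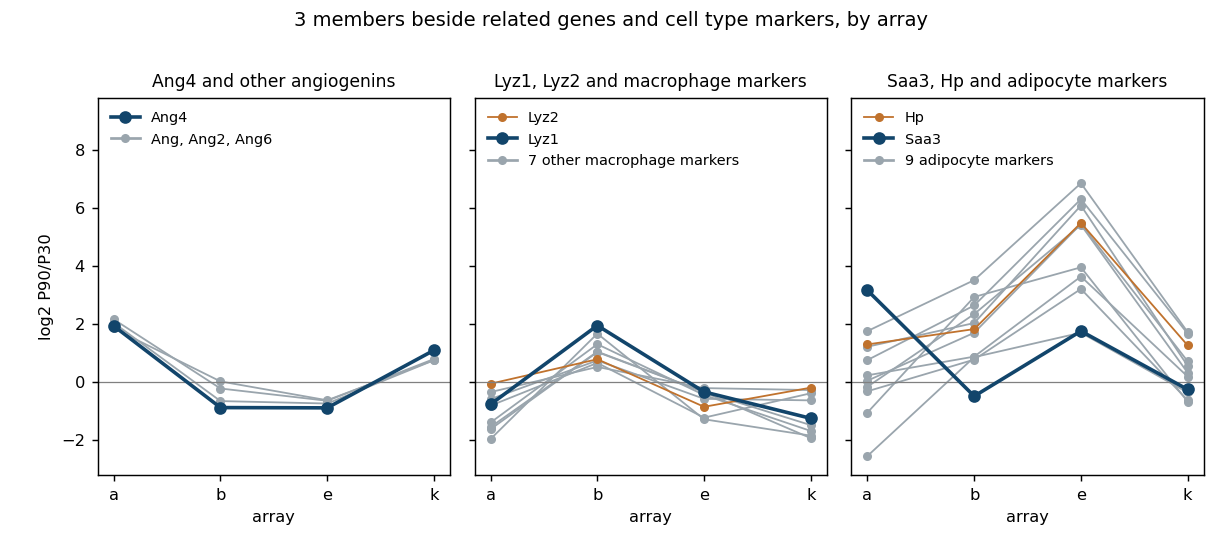
Log2 P90/P30 (vertical axis) on arrays a, b, e and k (horizontal axis) for Ang4 with 3 angiogenin paralogs, Lyz1 with Lyz2 and 7 other macrophage markers, and Saa3 with Hp and 9 adipocyte markers. Ang4 runs close to its paralogs, Lyz1 is above 0 on array b together with the macrophage markers, and Saa3 is highest on array a (3.17) whereas the adipocyte markers are highest on array e.

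Of the other antimicrobial genes, 24 of 27 were on the array, 17 were tested and 5 were saturated on at least 3 arrays, among them Lypd8 and Lgals4. Of the 12 counted, 8 had a mean above 0 and 4 below, with a median of 0.38, against 45.6% of all genes above 0. None passed limma's test, and 2 had an unadjusted p under 0.05, against 8.11% of all genes. Pglyrp2, a peptidoglycan amidase, was above 0 on all 4 arrays with 0.66 on a, 0.38 on array b, 0.25 on array e and 1.28 on array k. Camp, Defb1, Nos2 and Pglyrp3 were not well above background on any array. The mucus and IgA transport list had 12 of 15 genes measured, with Clca1 and Zg16 saturated, and 7 counted, 2 above and 5 below 0 with a median of -0.23 and none at either threshold. Muc4, a membrane mucin, was below 0 on all 4 arrays with a mean of -0.23 ± 0.28 (SD, n = 4).

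Of 14 acute phase genes, 13 were tested, 10 with means above 0 and 3 below, and 4 were above 0 on all arrays, against 6.17% of all genes. None passed limma's test, and 1 had an unadjusted p under 0.05, against 8.11% of all genes. Hp, which encodes haptoglobin, had 1.31 on array a, 1.84 on array b, 5.50 on array e and 1.27 on array k. Fgb (a fibrinogen chain) had a mean of 0.56 ± 0.73 and Lrg1 one of 0.37 ± 0.56, and complement C3 had 0.46 ± 1.79 with -2.05 on array k (SD, n = 4 each). Adipocyte markers had their highest median on the same array as Hp: 9 of 10 were tested, 8 had means above 0, and their median was 0.056 on array a, 2.04 on array b, 5.43 on array e and 0.33 on array k. Cfd (adipsin) had a mean of 3.47 ± 2.41, Adipoq (adiponectin) 2.85 ± 2.43 and Plin4 2.48 ± 2.49 (SD, n = 4 each). The list's summed signal was 6638 to 197600 at P90, against 4113 to 12930 at P30, and Lep was too dim to test. On array a, where Saa3 stood at 3.17, this median was 0.056, and the markers ran from -2.54 (Lpl) to 1.77 (Cfd). Adipoq and Plin4 read 0.77 and 1.23 there, and Fabp4 read -1.04. The part of these cells in the Hp, Saa1 and Saa3 values was not tested. Neutrophil markers were mostly dim, with 4 of 11 tested and a summed signal of 330.9 to 842 at P90, against 301 to 430.9 at P30; Csf3r, Cxcr2 and Elane were not among those tested.

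The signals known to induce these genes had 30 of 32 genes on the array and 25 tested, 15 with means above 0 and 10 below, a median of 0.069 and 4 above 0 on all arrays (6.17% of all genes). None passed limma's test, and 2 had an unadjusted p under 0.05, a share near the 8.11% of all genes. Il17ra, the receptor chain for IL-17, had 0.55 on array a, 0.35 on array b, 0.38 on array e and 0.43 on array k, values closer to each other than those of any member tested. Tyk2, a kinase of cytokine receptors, was also above 0 on all arrays, with a mean of 0.42 ± 0.36 (SD, n = 4). Il17rc, another IL-17 receptor chain, had 0.13 ± 0.38, and Cebpd, a C/EBP factor, had 0.23 ± 0.64 (SD, n = 4 each). The cytokines Il22, Il17a, Il23a and Il6 were not well above background on any array, so these 4 ligands gave no ratio.

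By the ratios over the 4 arrays, the genes nearest to Reg3g were Ccna2 (cyclin A2), at 0.401 log2 units of root mean square difference, and Ppic (a cyclophilin), at 0.433. Ccna2 had -2.79 on array a, -0.60 on array b, -1.88 on array e and -1.29 on array k. For Reg3a the nearest was Smad4 at 0.111, for Lyz1 Aldh1a3 at 0.140, for Saa3 Csta1 at 0.328 and for Reg4 Creb3l3 at 0.445. Retnlb was nearest to Insl5, a peptide hormone of colonic endocrine cells, at 0.946. Nothing was close to Reg3b, whose nearest gene was Cbx3 at 1.25. The likeness rests on 4 values per gene.

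**Figure D4:**
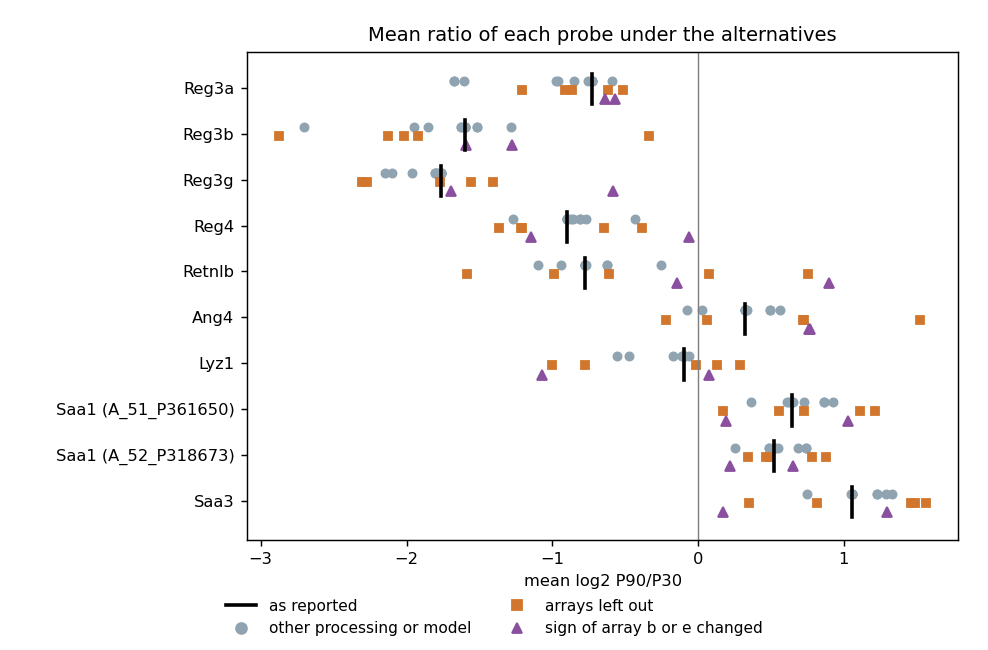
Mean log2 P90/P30 of each member probe (horizontal axis) as reported (black line) and under up to 21 alternatives: other processing or models, arrays left out, and changed signs of array b or e. The Reg3 means stay below 0 and the Saa means above 0 in every alternative that tested them, and the means of Retnlb, Ang4 and Lyz1 cross 0. The Saa1 probes were not tested with saturated spots left out.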

How the data were processed

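Colonic mucosa RNA of mice at P90 (90 days) and P30 (30 days) was compared on 4 arrays of 1 slide. The authors' deposited scanner files hold spot intensity per channel (linear, not normalised) and marks per spot for background, saturation and outliers, of no unit of their own (other), per the file headers. Their log10 ratio is Cy5 over Cy3 of processed signals, background-subtracted and scaled per dye, per the file headers. Agilent Feature Extraction made the files; its version is 10.5.1.1 in the headers, while the submitters' processing notes give 8.5.1.1. The authors' deposited value table matched that ratio as log2 P90/P30 within 0.01 for 79.98% to 86.99% of probes; its column medians were 0.205 (a), -0.17 (b), 0.0494 (e) and 0.1667 (k), and how it was centred is not given in the sources used here.

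Median spot signals, as the mean is not among the columns used here, were corrected with normexp (offset 50) and loess (span 0.3) in limma 3.58.1 under R 4.3.3. Outlier spots were dropped and saturated ones kept. Probes well above background on at least 3 arrays in 1 channel were fitted (lmFit, eBayes) and p-values adjusted by Benjamini-Hochberg over 27055 probes and a threshold of 0.05. Signals per channel, in arbitrary units, were scaled between arrays by Aquantile. RefSeq accessions of GRCm38.p6 named 25097 of 41174 probes. In gene lists the probe of highest mean intensity stood for a gene, and genes saturated on 3 arrays in a channel were left out of counts, a choice made after seeing the data. Named were all members and measured paralogs and, per list, the 2 genes of highest intensity and up to 3 with the largest change in 1 direction on all arrays; genes given as too dim to test, and the 2 Cyp3a genes, were picked with their values known. A gene that the rule names is not reported here. The members and lists were chosen with earlier results of these data known. Likeness between genes is the root mean square difference of their ratios over the arrays. The number of arrays limits the precision. Fits were tested on simulated data, and 21 alternatives were run.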

Additional observations from a re-analysis of the deposited data

Results flagged for a closer look

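In 4 of 30 sets of 4 values checked (ratios, P90 signals and P30 signals of the 10 member probes), 1 array stood apart from the other 3 by a gap near the whole range of the set; chance flags about 1 set in 20. The sets are not independent, since each ratio comes from the P90 and P30 signals of the same probe. The count of 4 therefore cannot be weighed against 1 in 20. The Reg3b log2 P90/P30 on array a was -5.39, and its log2 signal at P90 there was 9.81, both from the same P90 spot. The Reg3g log2 signal at P90 on array a was 8.56. The Saa3 log2 signal at P30 on array k was 14.11, above the other P30 arrays. No explanation of these was tested.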

How the results depend on the processing

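No member probe was called by limma under any of the 21 alternatives, and the number of probes called over all probes was 3 with a normexp offset of 10, with the processed signals before loess, with the deposited log ratio and with the series' value table (the same 2 Cyp3a44 probes and 1 Cyp3a16 probe each time), and 0 in the others. The means of Reg3a, Reg3b, Reg3g, Reg4, Saa1 and Saa3 kept their direction in every alternative that tested them, with -2.30 to -0.58 for Reg3g, -2.87 to -0.34 for Reg3b, -1.67 to -0.52 for Reg3a, -1.37 to -0.063 for Reg4 0.17 to 1.56 for Saa3, and 0.17 to 1.22 and 0.22 to 0.87 for the Saa1 probes A_51_P361650 and A_52_P318673. The Retnlb mean was 0.75 without arrays b and e and 0.895 with the sign of array b turned, and ran from -1.58 to 0.078 with 1 array left out. The Ang4 mean was -0.079 with a dye term and ran from -0.22 to 0.73 with 1 array left out. The Lyz1 mean was 0.072 with the sign of array e left unturned, reached -1.07 when array b was turned, and ran from -0.78 to 0.29 with 1 array left out. The cause of these reversals was not tested. Centring on medians in place of loess moved the median of all probes to -0.20, against -0.020. The test already pairs the ages, since each value is the ratio of the P90 and P30 RNA of 1 array. No further pairing was possible because the arrays form 1 group. Saturated and dim spots limit Saa1, Reg3b, Reg3a and Lcn2. Neither Saa1 probe could be tested with saturated spots left out, so the direction of its means was not examined there.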
